A study of Mus musculus with 12 samples.

Results

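The genes described here are 8 members of the Ms4a family of myeloid membrane genes, Ms4a4a, Ms4a4b, Ms4a4c, Ms4a6b, Ms4a6c, Ms4a6d, Ms4a7 and Ms4a14, out of 56953 genes in the deposited tables. They were chosen by symbol, with their levels in these libraries already known, so that the measured difference between genotypes selected them and is given below as a description without p-values. All 8 stood in both tables, and 7 of them passed the filter on low counts, with Ms4a4b below it. Messenger RNA was measured in whole mouse spinal cord in 12 libraries of 3 animals per group. The groups were cKO at 4 weeks, control at 4 weeks, cKO at 4.5 weeks and control at 4.5 weeks after tamoxifen. In the cKO mice the RNA helicase gene Ddx20 (DEAD-box helicase 20) is flanked by loxP sites (Ddx20flox/flox) and the mice carry the Plp-CreER transgene, a tamoxifen-activated Cre recombinase that acts in cells of the oligodendrocyte lineage. The labels give the other mice as control, and do not give which of these alleles they carried, nor the age of the animals. The comparison of cKO with control at each time asks how loss of Ddx20 in those cells changes the RNA of the cord.

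MS4A proteins span the membrane several times, with both ends inside the cell, and are found mostly on blood and immune cells. The best known are CD20 (Ms4a1) of B cells and the beta chain of the IgE receptor (Ms4a2) of mast cells and basophils. In humans, variants near MS4A4A and MS4A6A are linked to the risk of Alzheimer disease and to the level of soluble TREM2 in cerebrospinal fluid. In the mouse nervous system Ms4a7 is known as a marker of border-associated and blood-derived macrophages more than of resting microglia, and Ms4a6 genes as genes of monocytes, macrophages and activated microglia.

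The family lies in 1 cluster on chromosome 19, where Ms4a14, Ms4a7, Ms4a4a, Ms4a4c, Ms4a4b, Ms4a6c and Ms4a6b follow each other, and Ms4a4d separates Ms4a6b from Ms4a6d. Promoter sequences, from 250 bases before to 50 bases after the start, came from RefSeq on build GRCm38.p6, which is not the build of the counts (mm39). They matched 7 of the 8 members with 8 promoters, Ms4a6d being the member named only. Shown first are Ms4a6c, chr19:11469118-11469417 (plus strand), and Ms4a6b, chr19:11518309-11518608 (plus strand), neighbours that were both higher in cKO at both times. Ms4a4c, chr19:11407411-11407710 (plus strand), and Ms4a4b, chr19:11443308-11443607 (plus strand), are shown because these close copies were counted at very different levels. Ms4a4a, chr19:11375238-11375537 (plus strand), is shown as the member with the widest gap between the times. Capitals mark the searched motifs described after the sequences.
Ms4a6c: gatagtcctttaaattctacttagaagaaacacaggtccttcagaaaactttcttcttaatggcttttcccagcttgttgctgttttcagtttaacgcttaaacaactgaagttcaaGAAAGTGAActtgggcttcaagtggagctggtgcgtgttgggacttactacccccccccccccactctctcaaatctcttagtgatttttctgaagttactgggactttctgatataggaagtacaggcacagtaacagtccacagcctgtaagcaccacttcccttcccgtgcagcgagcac
Ms4a6b: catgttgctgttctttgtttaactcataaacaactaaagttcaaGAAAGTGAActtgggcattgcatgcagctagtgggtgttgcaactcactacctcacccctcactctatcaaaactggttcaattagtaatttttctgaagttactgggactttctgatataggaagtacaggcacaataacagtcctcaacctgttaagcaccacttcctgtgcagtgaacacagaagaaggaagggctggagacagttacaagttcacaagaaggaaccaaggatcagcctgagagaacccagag
Ms4a4c: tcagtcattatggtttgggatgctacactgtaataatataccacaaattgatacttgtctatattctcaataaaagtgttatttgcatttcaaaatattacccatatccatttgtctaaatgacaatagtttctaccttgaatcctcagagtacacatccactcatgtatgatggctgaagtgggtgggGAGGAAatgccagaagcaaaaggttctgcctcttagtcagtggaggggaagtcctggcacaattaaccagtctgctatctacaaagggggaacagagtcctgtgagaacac
Ms4a4b: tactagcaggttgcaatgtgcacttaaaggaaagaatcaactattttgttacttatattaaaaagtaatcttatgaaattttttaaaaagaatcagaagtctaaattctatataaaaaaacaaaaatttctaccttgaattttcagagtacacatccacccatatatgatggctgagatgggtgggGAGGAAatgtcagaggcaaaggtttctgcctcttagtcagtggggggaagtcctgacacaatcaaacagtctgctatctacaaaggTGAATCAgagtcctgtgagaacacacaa
Ms4a4a: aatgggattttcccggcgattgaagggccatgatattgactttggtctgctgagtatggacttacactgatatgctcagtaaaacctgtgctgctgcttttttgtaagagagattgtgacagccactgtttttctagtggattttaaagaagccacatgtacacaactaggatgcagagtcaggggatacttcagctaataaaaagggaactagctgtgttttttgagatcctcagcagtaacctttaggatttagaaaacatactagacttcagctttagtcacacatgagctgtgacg

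Motifs were searched by their letters on both strands. Ms4a6c and Ms4a6b both held GAAAGTGAA, a match to the interferon-response core GAAANNGAA, with its first base at −133 in Ms4a6c and at −206 in Ms4a6b, counted from −1 just before the start. That core stood in 8.56% of 32851 mouse promoters of the same length. Their promoters were identical at 192 of 225 aligned bases, or 51.2% of the 375 positions of the alignment with its gaps. Ms4a4c and Ms4a4b held GAGGAA, the core of sites bound by ETS factors such as the myeloid regulator PU.1, at −61 and −64, a motif found in 28.3% of all promoters. These promoters were identical at 230 of 281 aligned bases, or 72.1% of the 319 positions of the alignment with its gaps. Ms4a4b alone of the pair also held TGAATCA, a match to the AP-1 motif TGANTCA, at 23, a motif found in 7.81% of all promoters. Ms4a4a held none of the 5 motifs searched. Of the promoters not shown, Ms4a14 held the ETS core on the other strand and an AP-1 match. The 2 promoters of Ms4a7 held the interferon-response core once each, and between them the ETS core and an AP-1 match. The longer PU.1 motif GAGGAAGT, which contains GAGGAA and is held by 3.2% of all promoters, and the E-box CACGTG, held by 7.15%, were in none of the 8. A match in letters is a description and not a binding site.

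The libraries held 33104560 to 47677267 estimated counts, and levels are in CPM, counts scaled to library size after scaling the libraries to each other by the trimmed mean of M values (TMM). As defining genes of the cord, the myelin gene Mbp was at 6464 to 20658 CPM and the motor neuron gene Chat at 8.53 to 41.8 CPM in every library. Both moved with genotype. Mbp was lower in cKO at both times (log2 fold change −0.83 at 4 weeks and −1.27 at 4.5 weeks). Chat was at −0.17 at 4 weeks (adjusted p 0.456 by edgeR's quasi-likelihood test) and at −1.83 at 4.5 weeks (adjusted p 6.66e-07 by the same test). The Hox gene Hoxc8 was at 0.30 at 4 weeks (adjusted p 0.0664 by edgeR) and at −1.57 at 4.5 weeks (adjusted p 1.54e-07 by edgeR). Between the control groups, 4.5 minus 4 weeks, Hoxc8 was at 0.64 (adjusted p 0.00431 by edgeR). Ddx20 did not fall in libraries labelled cKO. They held Ddx20 at 10.2, 11.0 and 9.90 CPM at 4 weeks, against 11.0, 9.78 and 11.1 CPM in control (log2 fold change −0.03, adjusted p 0.841 by edgeR's quasi-likelihood test). The level of Ddx20 at 4.5 weeks was 12.4, 11.1 and 13.3 CPM in cKO, against 9.16, 10.6 and 9.71 CPM in control (0.33, adjusted p 0.0134 by the same test). Whole cord holds many cells in which the driver is not active, and why Ddx20 did not fall was not tested. Read from the transcript Xist, the cKO animals of 4 weeks were female in libraries 1 and 2 and male in library 3, the controls of 4 weeks were male and all 6 animals of 4.5 weeks female. A gene that marks sensory ganglion neurons, Avil, moved with genotype at 4 weeks: cKO had 15.5, 23.5 and 21.3 CPM, against 0.321, 0.338 and 0.742 CPM in control. The level of Avil at 4.5 weeks was 11.5, 13.1 and 10.1 CPM in cKO, against 36.1, 0.259 and 0.627 CPM in control, where control 1 stood apart. The part of such cells in the results was not tested. In whole cord, more cells of a type and more RNA per cell cannot be told apart.

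The 3 Ms4a6 genes were higher in all libraries labelled cKO than in all controls at both times, and by more at 4.5 weeks. Ms4a6c held 4.18, 16.4 and 10.4 CPM in cKO libraries 1, 2 and 3 of 4 weeks, against 0.518, 1.11 and 2.25 CPM in control. At 4.5 weeks it held 86.3, 78.8 and 75.0 CPM in cKO, against 0.878, 0.363 and 0.380 CPM in control. Library 2 was thus the highest and library 1 the lowest of the cKO libraries at 4 weeks, and at 4.5 weeks the 3 lay close together. The log2 fold change of Ms4a6c was 3.005 ± 0.496 (SE) at 4 weeks, an 8.03-fold difference, and 7.21 ± 0.56 at 4.5 weeks, a 148-fold difference.

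Ms4a6d, which in mouse macrophages has been linked to inflammasome control, followed the same order of cKO libraries at 4 weeks. It held 4.01, 14.3 and 9.12 CPM in cKO at 4 weeks, against 0.543, 1.11 and 1.18 CPM in control. By 4.5 weeks its level was 55.0, 56.4 and 60.5 CPM in cKO, against 0.803, 0.544 and 0.806 CPM in control. The groups did not overlap at either time, and the log2 fold change was 3.29 ± 0.41 at 4 weeks and 6.31 ± 0.42 at 4.5 weeks. Ms4a6b, first described in T cells, was the one of the 3 with the least separation. It held 2.67, 7.51 and 4.06 CPM in cKO at 4 weeks, against 0.543, 0.461 and 1.89 CPM in control, where control 3 came close to cKO 1. Its level at 4.5 weeks was 26.7, 24.9 and 27.4 CPM in cKO, against 1.48, 0.441 and 0.582 CPM in control. Its log2 fold change was 2.28 ± 0.52 at 4 weeks and 4.98 ± 0.55 at 4.5 weeks. Without control 3 of 4 weeks Ms4a6b lay at 3.23 at 4 weeks, and without control 1 of 4.5 weeks at 5.66 at 4.5 weeks. Ms4a6c at 4 weeks lay at 3.72 without control 3 of 4 weeks. With a term for sex in the model, Ms4a6b at 4 weeks lay at 2.05 and was no longer called.

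**Figure D1:**
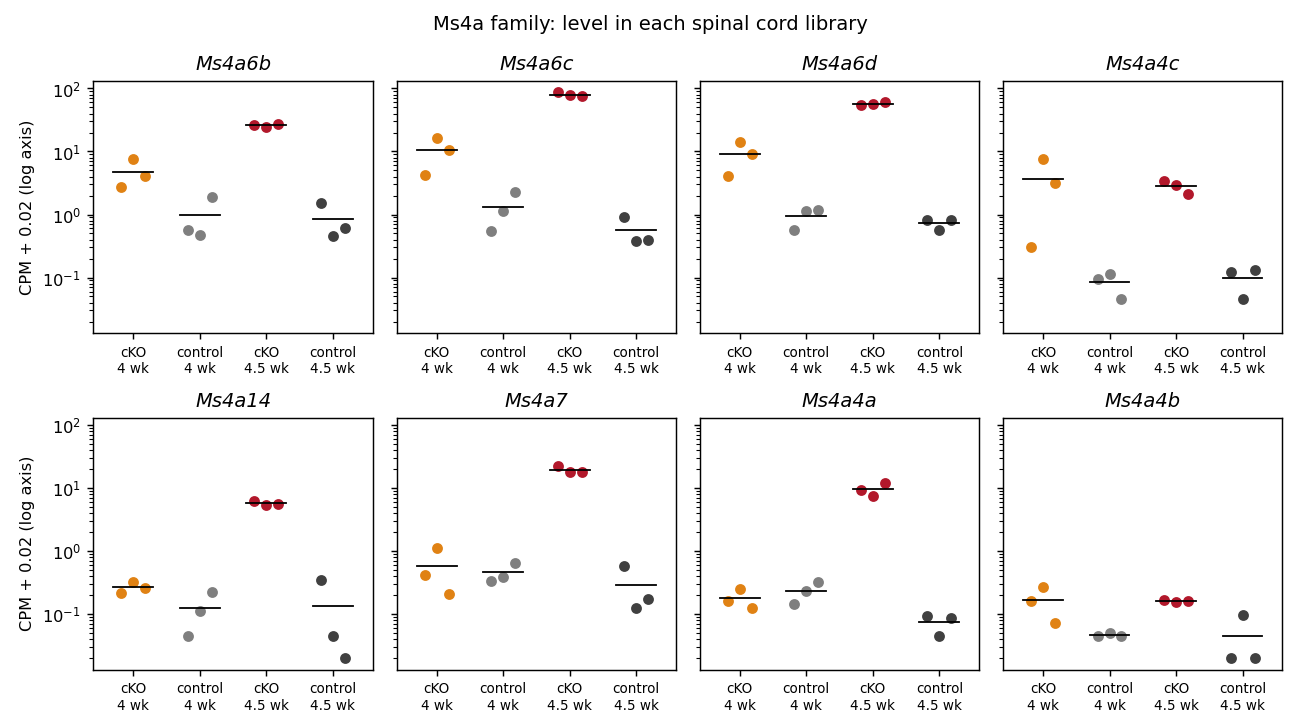
Level of each of the 8 members in each library, as CPM plus 0.02 on a log axis, with cKO left of control at 4 weeks and at 4.5 weeks; points are libraries 1 to 3 from left to right and bars the group means (n = 3). The upper row shows Ms4a6b, Ms4a6c, Ms4a6d and Ms4a4c with cKO above control at both times, and the lower row Ms4a14, Ms4a7 and Ms4a4a with overlapping groups at 4 weeks and cKO between 5.39 and 22.1 CPM at 4.5 weeks, beside Ms4a4b at 10 counts or fewer in every library.

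Ms4a14, Ms4a7 and Ms4a4a, 3 neighbours in the cluster, overlapped between cKO and control at 4 weeks and stood far apart at 4.5 weeks. Ms4a7 held 0.401, 1.11 and 0.188 CPM in cKO at 4 weeks, against 0.321, 0.369 and 0.639 CPM in control. In the 4.5-week libraries it held 22.1, 17.8 and 18.2 CPM in cKO, against 0.552, 0.104 and 0.157 CPM in control. At 4 weeks cKO library 2 was the highest and cKO library 3 the lowest of all 6, and at 4.5 weeks every cKO library lay far above every control. The log2 fold change of Ms4a7 was 0.37 ± 0.59 at 4 weeks and 6.15 ± 0.56 at 4.5 weeks, a 71.2-fold difference. The value at 4 weeks rested on cKO library 2, without which it was −0.60, and it was −1.23 with a term for sex. Without control 1 of 4.5 weeks, the value at 4.5 weeks was 7.16.

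Ms4a4a, the mouse gene whose human counterpart is a surface protein of macrophages that pairs with the receptor dectin-1, had few counts at 4 weeks. It held 0.143, 0.227 and 0.108 CPM in cKO at 4 weeks, against 0.123, 0.215 and 0.307 CPM in control, which were 4 to 12 counts per library. Its level at 4.5 weeks was 9.43, 7.41 and 12.1 CPM in cKO, against 0.0753, 0.0259 and 0.0671 CPM in control. The log2 fold change was −0.41 ± 0.43 at 4 weeks and 7.33 ± 0.40 at 4.5 weeks, 161-fold and the largest of the 7 tested members at that time. Ms4a14, the member with the longest coding sequence, held 0.201, 0.303 and 0.242 CPM in cKO at 4 weeks, against 0.0247, 0.0923 and 0.205 CPM in control. At 4.5 weeks it held 6.35, 5.39 and 5.58 CPM in cKO, against 0.326, 0.0259 and 0 CPM in control. Control 3 of 4 weeks just reached into the cKO range, and control 1 of 4.5 weeks held 13 of the 14 counts of its group. The log2 fold change of Ms4a14 was 1.20 ± 0.84 at 4 weeks and 5.61 ± 0.69 at 4.5 weeks. The first value was 2.11 without control 3 of 4 weeks, still not called. The second was 8.55 without control 1 of 4.5 weeks and 4.99 without control 3 of that time.

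Ms4a4c, a gene of blood cells, had its highest value in a library of 4 weeks, unlike the other 6 tested members. It held 0.287, 7.64 and 3.15 CPM in cKO at 4 weeks, against 0.0740, 0.0923 and 0.0256 CPM in control. At 4.5 weeks it held 3.38, 2.87 and 2.08 CPM in cKO, against 0.100, 0.0259 and 0.112 CPM in control. The 3 cKO libraries of 4 weeks were spread from 10 to 303 counts, with library 1 lowest, while those of 4.5 weeks held 74 to 136 counts. The log2 fold change was 5.81 ± 1.02 at 4 weeks and 5.05 ± 0.97 at 4.5 weeks. At 4 weeks it was no longer called with limma-voom, at 4.88, and it was 4.71 without cKO library 2 of 4 weeks.

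Ms4a4b, which in mice is known from T cells and dampens their division, stayed near the detection limit. It held 5, 10 and 2 counts in cKO at 4 weeks, against 1, 1 and 1 in control, and 6, 5 and 5 counts in cKO at 4.5 weeks, against 0, 3 and 0 in control. The ratio of the summed counts, scaled for depth, was 5.69 at 4 weeks (exact 95% interval 1.65 to 30.3) and 5.84 at 4.5 weeks (1.67 to 31.3), intervals that cover counting error only. Tested without the filter on low counts, Ms4a4b was called at neither time. The coding sequences of Ms4a4b and Ms4a4c were identical at 622 of 678 bases in GENCODE M21. Of the 50-base windows in their transcripts, 8.19% for Ms4a4c and 2.40% for Ms4a4b also occurred in another gene, as did 10.5% for Ms4a6c, 3.57% for Ms4a6b, 2.54% for Ms4a6d, 0.306% for Ms4a7 and none for Ms4a4a and Ms4a14. Reads from such windows are shared out by estimation, so the few counts of Ms4a4b are uncertain where Ms4a4c is high. The kit does not mark strand, and Ms4a6c shares 1088 exon bases with the antisense gene BE692007, which held 5 counts or fewer in every library.

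**Figure D2:**
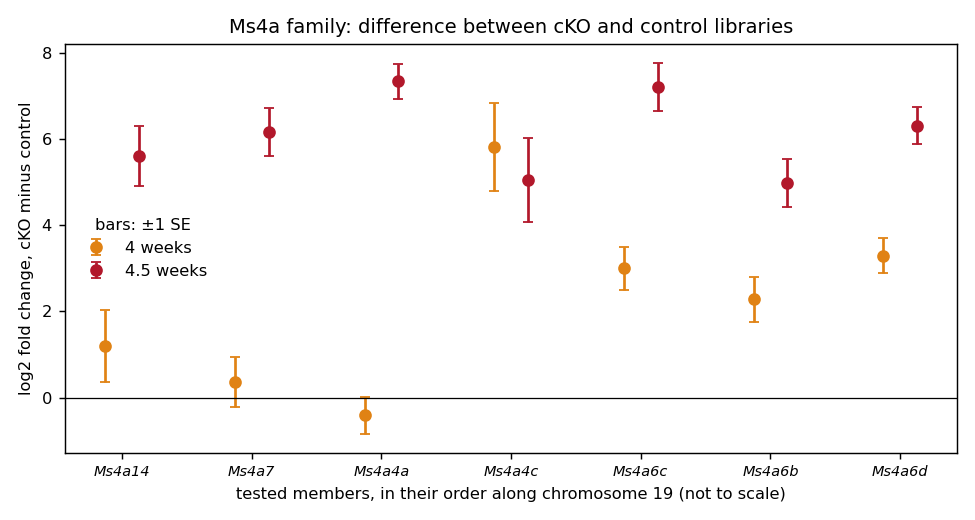
Log2 fold change of cKO minus control for the 7 tested members at 4 and at 4.5 weeks, with bars of 1 SE from edgeR's fit to all 12 libraries, placed in their order along chromosome 19. The neighbours Ms4a14, Ms4a7 and Ms4a4a lie between −0.41 and 1.20 at 4 weeks and between 5.61 and 7.33 at 4.5 weeks, and Ms4a4c is the member whose value at 4 weeks is not below that at 4.5 weeks.

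Counted over the 7 tested members, 4 were called higher in cKO at 4 weeks (Ms4a4c, Ms4a6b, Ms4a6c and Ms4a6d) and 0 lower at an adjusted p below 0.05, where 20.1% of all 19278 tested genes were called higher. At 4.5 weeks all 7 were called higher, beside 33.3% of all tested genes. All 3 cKO libraries lay above all 3 controls in 4 of the 7 at 4 weeks and in 7 of the 7 at 4.5 weeks, beside 24.1% and 36.7% of all tested genes. The median log2 fold change of the members was 2.28 at 4 weeks and 6.15 at 4.5 weeks, beside 0.0072 and 0.021 over all tested genes. Since this contrast chose the members, nothing is read from these shares.

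The effect of genotype was larger at 4.5 than at 4 weeks in 6 of the 7 members, all but Ms4a4c, and smaller in 0, where 18.7% of all tested genes had a larger and 21.9% a smaller effect at 4.5 weeks. The difference of the 2 log2 fold changes was 7.74 ± 0.61 for Ms4a4a, 5.79 ± 0.82 for Ms4a7, 4.42 ± 1.19 for Ms4a14 and 4.21 ± 0.78 for Ms4a6c. It was 3.01 ± 0.60 for Ms4a6d, 2.70 ± 0.74 for Ms4a6b and −0.77 ± 1.64 for Ms4a4c. Without control 3 of 4 weeks, the calls for Ms4a6b (1.75) and Ms4a14 (3.50) were lost and Ms4a6c was at 3.49. Without control 1 of 4.5 weeks, the difference was 7.36 for Ms4a14, 6.79 for Ms4a7 and 3.38 for Ms4a6b, and without control 3 of that time it was 3.80 for Ms4a14. Without cKO library 2 of 4 weeks the value was 0.33 for Ms4a4c and 6.75 for Ms4a7, which was 7.38 with a term for sex. The times also differ in the sex of the controls and were counted in separate tables, so time, sex and table cannot be told apart here.

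Summed over the 8 members, the level was 12.04, 47.8 and 27.4 CPM in cKO at 4 weeks, against 2.17, 3.48 and 6.52 CPM in control, and 209, 194 and 201 CPM in cKO at 4.5 weeks, against 4.22, 1.61 and 2.10 CPM in control. Ms4a6c, Ms4a6d and Ms4a6b together held most of that sum in every library, as shares of counts that take no account of length. Ms4a6c made up 37.3% to 41.2% of it in cKO at 4.5 weeks, against 18.1% to 22.6% in control. Ms4a6b made up 12.7% to 13.6% in cKO at 4.5 weeks, against 27.4% to 35.1% in control, so at 4.5 weeks the shares of both genes did not overlap. At 4 weeks they did, Ms4a6c at 34.4% to 38.2% in cKO against 23.9% to 34.5% in control, and Ms4a6b at 14.8% to 22.1% in cKO against 13.3% to 29.0% in control. Ms4a4c made up 2.38%, 16.0% and 11.5% in cKO libraries 1, 2 and 3 of 4 weeks, against 3.41%, 2.65% and 0.392% in control.

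**Figure D3:**
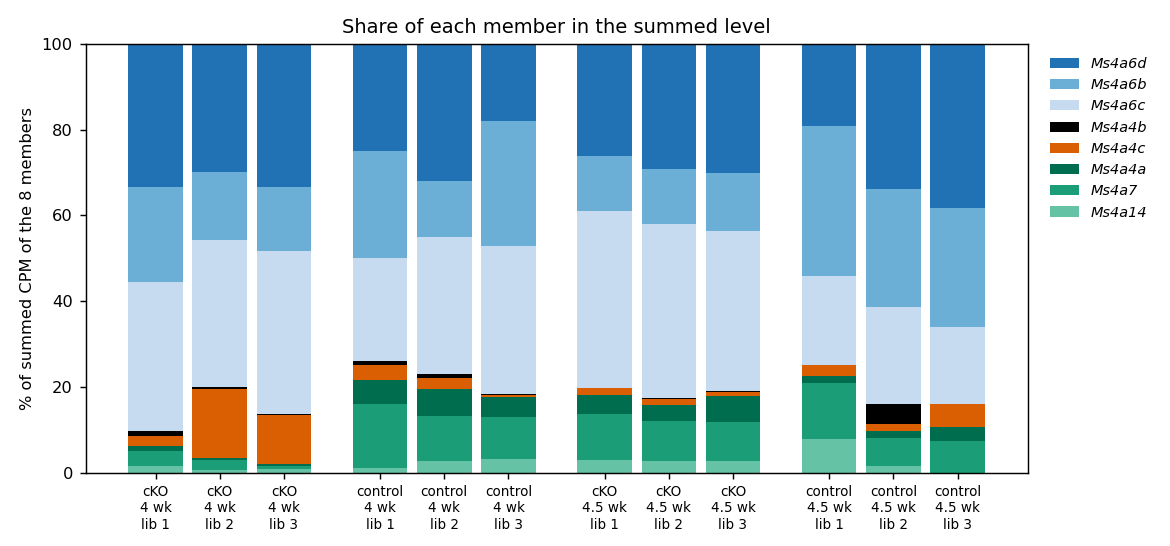
Share of each member in the summed CPM of the 8 members, 1 bar per library, with cKO left of control at each time and colours stacked in the order of the genes along chromosome 19. Ms4a4c stands out in cKO libraries 2 and 3 of 4 weeks at 16.0% and 11.5%, and Ms4a6c takes a larger part in cKO (37.3% to 41.2%) than in control (18.1% to 22.6%) at 4.5 weeks.

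Levels between genes were compared per length, as CPM per kilobase of the longest coding transcript in GENCODE M21. In cKO at 4.5 weeks Ms4a6c was the highest at 43.5 ± 3.1 CPM per kilobase, followed by Ms4a6d at 40.4 ± 2.0 (SD, n = 3), and their ranges overlapped. Next came Ms4a7 at 12.3 ± 1.5, Ms4a4a at 11.6 ± 2.8 and Ms4a6b at 9.82 ± 0.48 CPM per kilobase, of which Ms4a4a overlapped with each of the other two. Ms4a4c at 1.61 ± 0.38 and Ms4a14 at 1.42 ± 0.13 CPM per kilobase overlapped as well, and Ms4a4b was last at 0.0299 ± 0.0013. In cKO at 4 weeks the order began with Ms4a6d at 6.44 ± 3.62, Ms4a6c at 5.62 ± 3.33, Ms4a4c at 2.14 ± 2.15 and Ms4a6b at 1.77 ± 0.93 CPM per kilobase, with overlapping ranges between neighbours in that order. Ms4a7 followed at 0.359 ± 0.306, Ms4a4a at 0.191 ± 0.073, Ms4a14 at 0.0611 ± 0.0126 and Ms4a4b at 0.0315 ± 0.0209. In control the levels ran from 0.702 ± 0.479 for Ms4a6c to 0.00568 ± 0.00069 for Ms4a4b at 4 weeks, and from 0.506 ± 0.106 for Ms4a6d to 0.00546 ± 0.00945 for Ms4a4b at 4.5 weeks.

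Control at 4.5 weeks was also set against control at 4 weeks, where 16.7% of all tested genes were called in either direction. Of the 7 members 1 was called lower, Ms4a4a (log2 fold change −1.86 ± 0.51). It held 3, 1 and 3 counts in control at 4.5 weeks against 5, 7 and 12 counts in control at 4 weeks. Ms4a4a passed the filter on low counts only through cKO at 4.5 weeks, at 271 to 433 counts. The controls also enter the genotype effects that were known when the members were chosen. The call is thus a description without a p-value, and nothing is read from it. That call was lost in 8 of 20 alternatives, among them leaving out control 2 or 3 of either time. The other 6 lay between −1.26 ± 0.68 (Ms4a6c) and 0.35 ± 1.47 (Ms4a4c), with none called by edgeR's quasi-likelihood test and none at an unadjusted p below 0.05. Controls of 4 weeks were male and those of 4.5 weeks female, so time and sex cannot be told apart in this comparison.

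Genes of the family outside the 8 members were mostly near 0. Of 17 listed, 15 were in the tables and 4 passed the filter on low counts, Ms4a4d, Ms4a15, Tmem176a and Tmem176b. At 4 weeks 4 of the 4 were called higher in cKO, and at 4.5 weeks 3 of the 4, beside 20.1% and 33.3% of all tested genes, with median log2 fold changes of 1.92 and 2.54. Ms4a15 passed that filter only through cKO at 4 weeks, the group where it was high. Nothing is read from its place in the count at 4 weeks. Tmem176b, a related ion channel gene of myeloid cells, held 97.6, 109 and 113 CPM in cKO at 4 weeks, against 43.2, 47.1 and 43.9 CPM in control (log2 fold change 1.25 ± 0.10, adjusted p 1.97e-06 by edgeR's quasi-likelihood test). Levels at 4.5 weeks were 221, 199 and 210 CPM in cKO, against 44.0, 31.9 and 41.2 CPM in control (2.43 ± 0.10, adjusted p 1.14e-09 by edgeR). Its neighbour Tmem176a held 59.2, 64.1 and 70.7 CPM in cKO at 4 weeks, against 18.9, 22.1 and 19.2 CPM in control (1.69 ± 0.10, adjusted p 1.56e-07 by edgeR). At 4.5 weeks Tmem176a held 128, 112 and 119 CPM in cKO, against 20.8, 16.0 and 17.8 CPM in control (2.72 ± 0.10, adjusted p 4.75e-10 by edgeR). Both were higher in every cKO library than in every control at both times, by log2 fold changes below the 4.98 of Ms4a6b, the lowest of the 7 members at 4.5 weeks.

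Ms4a4d, which lies between Ms4a6b and Ms4a6d, held 0.401, 1.46 and 0.296 CPM in cKO at 4 weeks, against 0.0740, 0.185 and 0.230 CPM in control (2.15 ± 0.68, adjusted p 0.0256 by edgeR, range over the alternatives 0.00894 to 0.537). Levels at 4.5 weeks were 1.37, 1.67 and 1.51 CPM in cKO, against 0.452, 0.156 and 0.112 CPM in control (2.66 ± 0.63, adjusted p 0.00227 by edgeR). At 4 weeks that call for Ms4a4d was lost with limma-voom, with each time fitted alone, with a term for sex, against a 1.5-fold change, and without control 1, control 2 or cKO library 2. Ms4a15 held 9, 13 and 11 counts in cKO at 4 weeks, against 1, 2 and 0 in control (3.30 ± 0.92). No p-value is given for that time, since cKO at 4 weeks alone took Ms4a15 past the filter. At 4.5 weeks it held 5, 0 and 1 counts in cKO, against 0, 0 and 1 in control (2.30 ± 1.37, adjusted p 0.156 by edgeR). Its call at 4 weeks was lost with a term for sex, against a 1.5-fold change, without control 1 or control 3, and without the pair of controls named under the macrophage markers. Ms4a8a held 4 counts in cKO at 4 weeks, against 0 in control, and 23 counts in cKO at 4.5 weeks, against 2 in control, a ratio of 12.6 (exact 95% interval 3.11 to 110).

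Members of the family that define other blood cells stayed at the detection limit. Ms4a1 (CD20 of B cells) held 6 counts in cKO at 4 weeks, against 9 in control, and 8 counts in cKO at 4.5 weeks, against 6 in control. Ms4a2 (the IgE receptor chain of mast cells) held 7 counts in cKO at 4 weeks, against 0 in control, and 5 in cKO at 4.5 weeks, against 3 in control. Ms4a5, Ms4a12, Ms4a18, Ms4a19 and Ms4a20 were at 0 counts in all 12 libraries.

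Genes of the Trem2 pathway, to which the human locus is linked, were described from a list of 12 covering the receptor, its adaptors, signalling partners, proteases that shed it and ligands. Of the 12 tested, 10 were called higher in cKO at 4 weeks and 0 lower (median log2 fold change 1.20), and 12 at 4.5 weeks (median 3.98), beside 20.1% and 33.3% of all tested genes called higher. The count at 4 weeks depended on the settings: 9 were called higher and 1 lower with the size factors of DESeq2, 10 higher and 1 lower with the DESeq2 Wald test, and 8 higher and 0 lower against a 1.5-fold change, which left 10 higher at 4.5 weeks. Trem2, the lipid receptor of microglia, held 392, 397 and 398 CPM in cKO at 4.5 weeks, against 9.08, 9.67 and 9.62 CPM in control (5.39 ± 0.12, adjusted p 1.57e-11 by edgeR). Cd33, an inhibitory sialic acid receptor of myeloid cells, held 97.4, 98.5 and 106 CPM in cKO at 4.5 weeks, against 6.60, 7.65 and 6.38 CPM in control (3.87 ± 0.11, adjusted p 5.50e-11 by edgeR). Both were already higher at 4 weeks, Trem2 at 50.5, 57.1 and 71.4 CPM in cKO against 12.5, 12.2 and 11.5 CPM in control, and Cd33 at 12.4, 15.1 and 14.7 CPM in cKO against 5.50, 6.74 and 6.67 CPM in control. The sheddase gene Adam17 was not called at 4 weeks, at 28.8, 30.4 and 27.8 CPM in cKO at 4 weeks against 24.6, 26.7 and 28.8 CPM in control (0.12 ± 0.08, adjusted p 0.264 by edgeR), and at 94.8, 85.1 and 79.5 CPM in cKO at 4.5 weeks against 27.3, 25.2 and 25.4 CPM in control (1.74 ± 0.08, adjusted p 1.87e-09 by edgeR).

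Markers of microglia rose with the members. Their 12 genes summed to 868, 1217 and 1185 CPM in cKO at 4 weeks, against 472, 475 and 465 CPM in control, and to 4322, 4245 and 3882 CPM in cKO at 4.5 weeks, against 462, 451 and 460 CPM in control. Of the 12, 10 were called higher at 4 weeks with 1 lower (Sall1), and 11 higher at 4.5 weeks, beside 20.1% and 33.3% of all tested genes called higher. None of the 12 was at 0 in any group. The smallest p at 4.5 weeks was that of Gpr34, a lysophospholipid receptor, at 3.48 ± 0.08 on the log2 scale (adjusted p 2.50e-11 by edgeR). As a percentage of the microglia sum, the summed members stood at 4.85%, 4.56% and 5.18% in cKO at 4.5 weeks, against 0.913%, 0.357% and 0.457% in control. At 4 weeks that percentage was 1.39%, 3.93% and 2.31% in cKO, against 0.460%, 0.732% and 1.40% in control, so cKO library 1 and control 3 did not separate. The part of the microglia genes in the members' differences was not tested.

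Markers of border-associated macrophages, the cells of the meninges and vessels, separated the times. Their 10 genes summed to 47.9, 66.8 and 31.6 CPM in cKO at 4 weeks, against 28.5, 38.5 and 52.1 CPM in control, and to 564, 521 and 447 CPM in cKO at 4.5 weeks, against 45.2, 16.7 and 14.3 CPM in control. The groups overlapped at 4 weeks and not at 4.5 weeks, as they did for Ms4a14, Ms4a7 and Ms4a4a. Of the 10, 1 was called higher at 4 weeks (Siglec1) and 5 at 4.5 weeks (Stab1, Siglec1, Folr2, Pf4 and F13a1), beside 20.1% and 33.3% of all tested genes. Stab1, a scavenger receptor, held 403, 370 and 310 CPM in cKO at 4.5 weeks, against 14.4, 8.97 and 8.75 CPM in control (5.08 ± 0.19, adjusted p 4.05e-10 by edgeR). Siglec1, an interferon-responsive sialic acid receptor, held 116, 112 and 92.3 CPM in cKO at 4.5 weeks, against 1.68, 0.285 and 0.134 CPM in control (7.27 ± 0.68, adjusted p 8.83e-07 by edgeR). These 2 genes thus made up most of the sum in cKO at 4.5 weeks.

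The other genes of that list moved less at 4.5 weeks than Stab1 and Siglec1. Folr2 (3.44 ± 0.69), Pf4 (2.56 ± 0.54) and F13a1 (2.17 ± 0.65) were called higher, while Cbr2 (0.95 ± 0.52) and Clec10a (0.94 ± 0.89) were not called. Mrc1 held 9.66, 6.68 and 10.5 CPM in cKO at 4.5 weeks, against 8.33, 2.26 and 1.86 CPM in control (1.11 ± 0.56, adjusted p 0.0957 by edgeR), and neither Lyve1 nor Cd163 was called (0.09 ± 0.81 and 0.36 ± 0.58). Among controls, number 3 of 4 weeks and number 1 of 4.5 weeks had the highest sums of these markers, 52.1 and 45.2 CPM, and also the highest Ms4a4a, Ms4a6b, Ms4a6c, Ms4a7 and Ms4a14 of their groups. Without these 2 controls Ms4a14 at 4 weeks was called higher in cKO, at 2.11, which gave 5 called members at 4 weeks and 7 at 4.5 weeks. Leaving them out also gave larger values for Ms4a6b (3.23) and Ms4a6c (3.72) at 4 weeks, and for Ms4a14 (8.55), Ms4a7 (7.16) and Ms4a6b (5.66) at 4.5 weeks. These 2 controls were the highest of their groups in these genes, so leaving them out raises cKO minus control by construction. Nothing is read from these larger values or from the added call. The part of border macrophages in the members' levels was not tested.

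**Figure D4:**
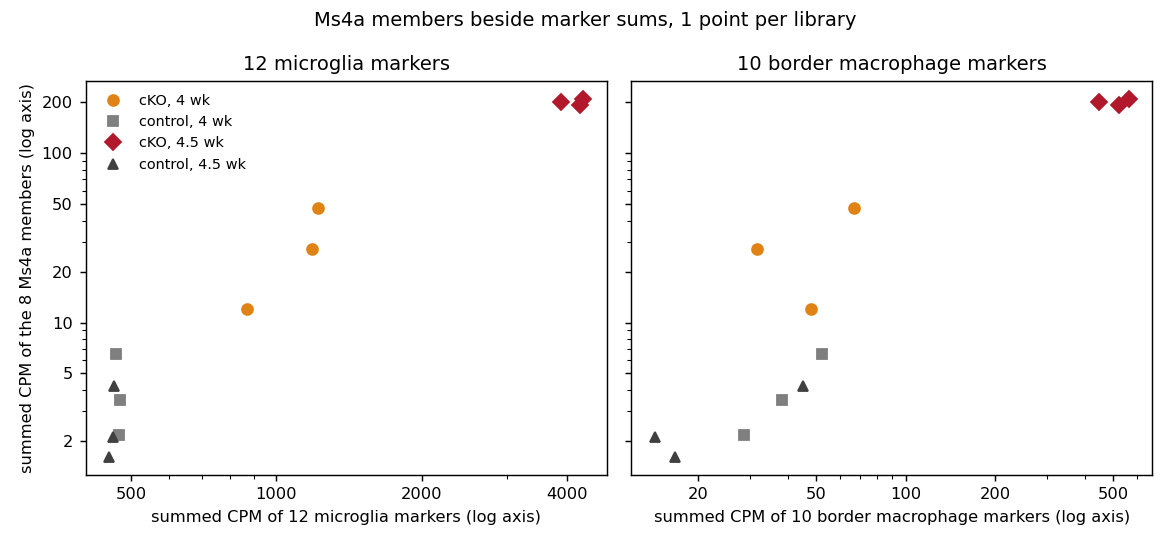
Summed CPM of the 8 members against the summed CPM of 12 microglia markers (left) and of 10 border macrophage markers (right), 1 point per library, all axes logarithmic. The 3 cKO libraries of 4.5 weeks lie at 194 to 209 CPM of the members at the upper right of both plots, and those of 4 weeks lie to the right of all controls for microglia markers but overlap with the controls for border macrophage markers.

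Markers of other blood cells were summed in the same way. The 8 monocyte genes summed to 111 to 224 CPM in cKO at 4 weeks, against 64.3 to 109 CPM in control, and to 696 to 918 CPM in cKO at 4.5 weeks, against 44.4 to 138 CPM in control. That sum was carried by Fn1, at 102 to 205 CPM in cKO at 4 weeks, against 59.7 to 106 CPM in control. At 4.5 weeks Fn1 held 664 to 863 CPM in cKO, against 42.7 to 134 CPM in control. Of the 8 monocyte genes, 3 were called higher at 4 weeks and 6 at 4.5 weeks, beside 20.1% and 33.3% of all tested genes. They were led by the integrin gene Itgal (5.22 ± 0.47, adjusted p 6.08e-07 by edgeR) and S100a4 (3.85 ± 0.42, adjusted p 3.79e-06 by edgeR) at 4.5 weeks. Ly6c2 was called at neither time (1.25 ± 0.75 and 1.05 ± 0.73), and Plac8 at 4 weeks only. The 10 T cell genes summed to 1.12 to 1.79 CPM in cKO at 4 weeks, against 1.13 to 1.30 CPM in control, and to 2.16 to 3.28 CPM in cKO at 4.5 weeks, against 0.671 to 2.83 CPM in control. The 8 NK cell genes summed to at most 0.903 CPM in any library, the 8 mast cell and basophil genes to at most 3.09 CPM and the 8 neutrophil genes to at most 14.6 CPM. The 8 B cell genes were carried by the single gene Ighm and summed to less in cKO, 12.4 to 14.8 CPM, than in control, 41.9 to 44.9 CPM, at 4.5 weeks, and the 8 dendritic cell genes, carried by Flt3, to 22.9 to 25.6 CPM in cKO against 37.2 to 39.6 CPM in control. Of the tested genes of these lists at 4.5 weeks, Cd5 (5.44 ± 0.79), Klrb1c (5.02 ± 1.09), Mmp8 (3.89 ± 0.50), Cd79b (3.06 ± 0.51) and Siglece (1.94 ± 0.26) were among those higher on the log2 scale, and Trac (−2.44 ± 0.57), Ighm (−2.25 ± 0.16) and Flt3 (−1.44 ± 0.10) among those lower, each called by edgeR. Called higher at 4.5 weeks were 3 of 4 tested T cell genes and the 1 tested NK cell gene. So were 1 of 6 neutrophil, 1 of 4 B cell and 2 of 5 dendritic cell genes, beside 33.3% of all tested genes. The T cell, B cell and dendritic cell lists had 1 gene each called lower. Cd5 held 0, 1 and 1 counts in control at 4.5 weeks, and Klrb1c 1, 0 and 1. The part of these cells in the members' levels was not tested.

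The genes whose log2 level ran most like the summed members over the 12 libraries, among 13342 genes compared, were H2-DMb1, which loads peptides onto MHC class II (Pearson r 0.997), the small GTPase gene Rhoj (0.996), the apoptosis protease gene Casp8 (0.994), the RNA-binding protein gene Hnrnpf (0.994) and the lysosomal protease gene Ctsc (0.993). These are descriptions, since all libraries share the same 4 groups and many genes follow them. The gene ranked first differed between the single members, while some genes recurred among the first 3 at nearly equal r. Stab1 was also among those of Ms4a14 (0.994), Adam17 among those of Ms4a7 (0.992), and Hnrnpf among those of Ms4a6c (0.994) and Ms4a6d (0.998). Ms4a6d ran most like C5ar1, the receptor of complement C5a (r 0.999), Ms4a6c like H2-DMb1 (0.996) and Ms4a6b like Was, an actin regulator of blood cells (0.990). Ms4a14 ran most like Adam17 (0.995), Ms4a7 like Stab1 (0.992) and Ms4a4a like Snx5, a sorting nexin of endosomes (0.996) 3 genes that were not called at 4 weeks. Snx5 held 115, 111 and 114 CPM in cKO at 4 weeks, against 116, 116 and 118 CPM in control, and 331, 336 and 366 CPM in cKO at 4.5 weeks, against 109, 112 and 113 CPM in control. Ms4a4c ran most like Irgm1, an interferon-induced GTPase (r 0.993). Irgm1 held 15.8, 83.7 and 50.4 CPM in cKO at 4 weeks, against 8.56, 10.4 and 9.54 CPM in control, and 51.0, 50.01 and 38.3 CPM in cKO at 4.5 weeks, against 10.6, 7.86 and 9.31 CPM in control. With cKO 2 and 3 of 4 weeks high and cKO 1 low, its order of those libraries was that of Ms4a4c. Irgm1 was chosen for its likeness to Ms4a4c over these same libraries, so nothing is read from the shared order.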

How the data were processed

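Messenger RNA libraries of whole mouse spinal cord came from an Illumina TruSeq RNA kit, a kit without strand marking, per the labels' protocols. The authors deposited 1 table per time of estimated counts per gene, not scaled by depth or length. Per the submitters' processing notes STAR, RSEM and build mm39 were used, and versions, parameters and the annotation release are not given in the sources used here. Columns were matched to samples by the time their table is for and by genotype and number in their name.

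Counts were rounded and fitted in R 4.3.3 with edgeR 4.0.16, with all 12 libraries, a mean per group, TMM scaling and edgeR's filter on low counts, which left 19278 of 56953 genes. Contrasts were tested with the quasi-likelihood F test, with Benjamini-Hochberg adjustment of p-values over the 19278 genes and calls at an adjusted p below 0.05. The SE of a log2 fold change is its size divided by the square root of F. The procedure was run on simulated data with changes placed in cKO at 4 weeks only, smaller than those of the called members. That run does not cover changes of the members' size or the other contrasts. Replicates are separate animals per the labels. Depth was 33104560 to 47677267 counts per library. Alternatives were size factors of DESeq2 1.42.0, upper quartile scaling, no filter, the DESeq2 Wald test, limma-voom (limma 3.58.1), each time alone, a replicate block, a sex term, a test against a 1.5-fold change and each library left out. Leaving out the 2 controls highest in border macrophage markers was chosen after seeing the data.

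The members and gene lists were chosen with earlier results of these data known. The text names all members, other family genes with at least 10 counts in all or 0 counts in every library, and of each other list the 2 called genes with the smallest p at 4.5 weeks. A gene this rule chose is not reported here. It adds the 5 genes most like the summed members and the gene most like each tested member by Pearson r of log2(CPM + 0.5), among genes whose mean log2 CPM was 1 or more. Ddx20, Avil, Mbp, Chat, Hoxc8, Xist, BE692007, Sall1, Folr2, Pf4, F13a1, Mrc1, Lyve1, Cd163, Cbr2, Clec10a, Fn1, Ly6c2 and Plac8 were added as checks after their values were seen. Symbols were missing for 6753 genes, and 27 read as dates were restored from identifiers. Transcripts and lengths came from GENCODE M21.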

Additional observations from a re-analysis of the deposited data

Results flagged for a closer look

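The effect of genotype differed between the times, by the interaction contrast of the same fit, in 6 of the 7 tested members and in 2 other genes of the family. Over all tested genes, 18.7% had a larger and 21.9% a smaller effect at 4.5 weeks. As 4.5 minus 4 weeks on the log2 scale, the difference was 7.74 for Ms4a4a, 5.79 for Ms4a7, 4.42 for Ms4a14, 4.21 for Ms4a6c, 3.01 for Ms4a6d and 2.70 for Ms4a6b, as a description since the members were chosen with these contrasts known. It was 1.17 ± 0.14 for Tmem176b (adjusted p 3.41e-05 by edgeR's quasi-likelihood test) and 1.03 ± 0.14 for Tmem176a (adjusted p 9.47e-05 by the same test). In both of these genes all 3 libraries labelled cKO lay above all 3 controls at each time.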

How the results depend on the processing

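The number of members called higher in cKO ranged over all alternatives from 3 to 5 at 4 weeks (4 in the fit described) and was 7 at 4.5 weeks in each, and the number with a larger effect at 4.5 weeks ranged from 4 to 6. The count of 5 came only from leaving out the 2 controls highest in border macrophage markers. Without the filter on low counts all 8 members were tested, and Ms4a4b was called at neither time. With each time fitted alone, 5 members were tested at 4 weeks. Between the control groups the call of Ms4a4a gave a count of 1, and 0 with limma-voom, with a sex term, against a 1.5-fold change and without the 2 controls highest in border macrophage markers (0 to 1 with each library left out). Other family genes called at 4 weeks numbered 4, and 2 with each time fitted alone, with a sex term and against a 1.5-fold change (2 to 4 with each library left out). Signs turned for values that were not called. With limma-voom these were the difference between the times for Ms4a4c (0.18, and −1.30 to 0.33 with each library left out) and control 4.5 minus 4 weeks for Ms4a14 (−0.88, and −2.85 to 1.013). Without the 2 controls named above, control 4.5 minus 4 weeks was −0.19 for Ms4a4c (−0.023 to 0.74), 0.029 for Ms4a6b (−0.92 to 0.72) and −1.93 for Ms4a14. Ms4a7 at 4 weeks was −1.23 with a sex term (−0.60 to 0.78). The cause was not tested. A sex term rests at 4 weeks on 1 male cKO library.

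Same-numbered cKO and control libraries correlated at −0.103, 0.0122 and −0.25 at 4 weeks and 0.0177, −0.0212 and 0.0866 at 4.5 weeks in their deviations from the group means, so the numbers were not taken as pairs. With a replicate block 4 members were called at 4 weeks, 7 at 4.5 weeks and 6 for the difference, as without it.

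Ms4a4b, Ms4a8a, Ms4a1 and Ms4a2, at a few counts per library, fell below the filter on low counts and were not tested in the fit described. Without that filter 10 other family genes were tested, of which 4 were called higher in cKO at each time, against 4 at 4 weeks and 3 at 4.5 weeks of the 4 tested with it.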
